A study of Saccharomyces cerevisiae with 2 samples.

Results

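The 47 genes described here are those of the deposited gene table of 5734 whose symbol is SEC, BET or ERP followed by a number only. The set holds 36 SEC, 5 BET and 6 ERP genes of the budding yeast Saccharomyces cerevisiae. Transcripts were sequenced from the strain 2-10515, labelled wild type, and from the strain Y518, labelled a mutant and described in the title as a high producer of glutathione. Both strains were started from a single colony, grown as a seed culture for 18 h at 30 °C and 180 rpm, and fermented under the same condition for 24 h. The sources used here do not give the mutation in Y518 or how the strains are related. Each strain was represented by 1 library, so no test between strains was possible, no difference below has a replicate check, and every comparison is between these libraries.

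The secretory pathway carries proteins from the endoplasmic reticulum (ER) through the Golgi to the cell surface and the vacuole. Proteins enter the ER through the Sec61 channel, leave it in vesicles coated by COPII, are returned from the Golgi in vesicles coated by COPI, and reach the plasma membrane in vesicles that the exocyst tethers and SNARE proteins fuse. Many of the SEC genes were found in screens for yeast mutants that stop secretion, and some of the BET genes in screens for mutants blocked between the ER and the Golgi. The ERP genes were found by their similarity to the p24 family of cargo receptors. The name alone does not make a member of the route. SEC53 and SEC59 encode enzymes that make sugar donors for glycosylation, and SEC14 encodes a lipid transfer protein.

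The 2-10515 library held 4.71 M uniquely mapped reads and the Y518 library 4.32 M. All 47 members had reads in both libraries and passed the minimum of a mean of 5 RPKM (unique reads divided by coding length in kilobases and by the library total in M) that 5415 genes of the table passed. Members had between 42 and 2739 reads in 2-10515 (median 314) and between 33 and 2314 in Y518 (median 304). Their reads covered at least 95% of the coding length for 35 members in 2-10515 and for 35 in Y518, and at least 73.1% for every member. No member had a near-identical copy or overlapped another annotated gene. The effect of unique mapping and of the unknown strand setting on their counts was not tested. Together they took 0.537% of the reads of 2-10515 and 0.603% of those of Y518.

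As a set the secretory transport genes had ratios near those of the whole transcriptome. Ratios are given as log2 of Y518 over 2-10515 after a pseudocount of 1 was added to each RPKM, which understates the difference of low genes, and a call needed a 2-fold ratio or more on that scale. By this rule 8 of 47 members were higher in Y518 and 0 were lower, and 39 lay within 2-fold, whereas 19.9% of all genes tested were called higher and 8.88% lower. The median log2 ratio of the members was 0.28, beside 0.27 for all genes tested, and the quartiles were -0.11 and 0.82 for the members and -0.29 and 0.84 for all genes. Above 0 were 31 members (63.0% of all genes). A limit of 1.5-fold gave 18 members higher and 3 lower, beside 35.3% and 16.4% of all genes. In each count the share of members called higher was close to or below that of all genes. Because the median of all genes stood at 0.27 in favour of Y518, ratios are also given after centring on it. After centring 4 members were higher (13.2% of all genes) and 2 were lower (13.6% of all genes). In a bulk culture, a change in the share of cells of a given kind and a change in transcript per cell cannot be told apart.

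For single genes the folds below use reads scaled to the library totals and no pseudocount, and the range in parentheses is the exact conditional binomial interval at 95%, which covers counting error only. That interval lay above 1 for 23 members (49.8% of all genes tested), below 1 for 7 (26.3% of all genes) and included 1 for 17. The 8 members called higher were BET4, SEC20, SEC11, ERP2, SEC28, SEC66, ERP1 and SEC24. The members nearest the limit were SEC24 just inside at a log2 ratio of 1.01 and SEC39 just outside at 0.99, and on the other side ERP5 at -0.98. With a pseudocount of 0.1 RPKM SEC39 was also called, and with 5 RPKM SEC24 was not. The role groups stood at medians between -0.06 for the COPII genes and 0.70 for the genes of ER entry, or -0.33 and 0.43 after centring. The counts of calls in each role group below are to be read against 19.9% of all genes tested called higher and 8.88% called lower.

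**Figure D1:**
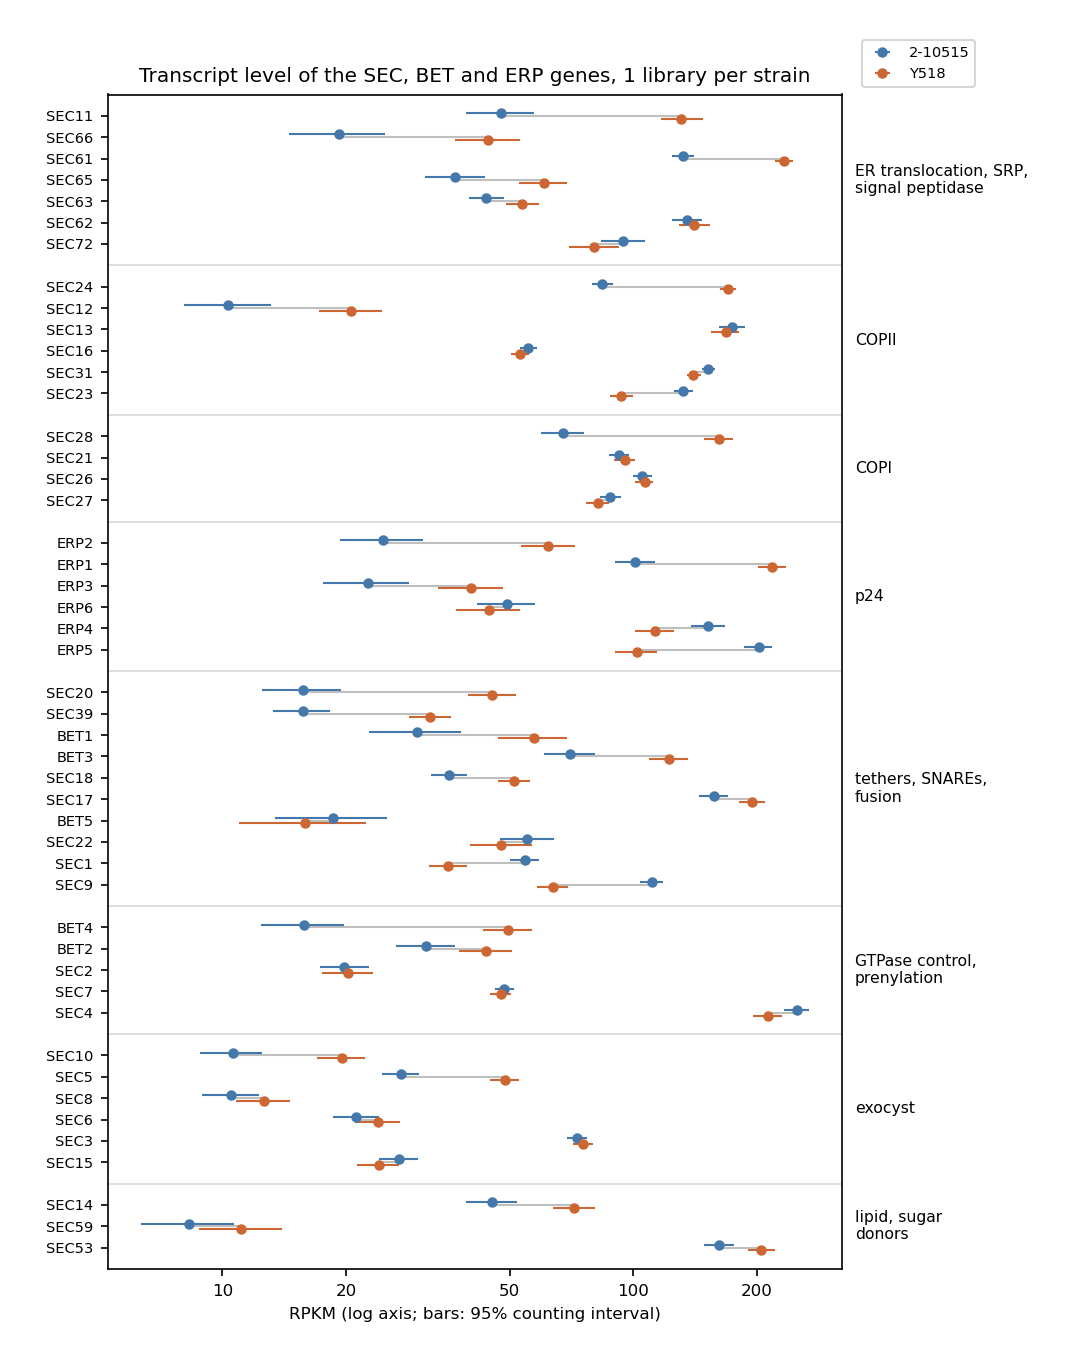
Transcript level of each of the 47 genes in RPKM on a log axis, with 2-10515 in blue and Y518 in orange, grouped by role. Bars are 95% counting intervals. SEC4 is the highest gene in 2-10515 at 250 RPKM and SEC61 the highest in Y518 at 233 RPKM, while SEC59 is the lowest in both at 8.30 and 11.1 RPKM.

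Of the 7 members that act in entry into the ER, 2 were called higher in Y518, SEC66 and SEC11, and the median log2 ratio was 0.70. This median was 0.43 after centring, and 0.49 without chromosome IX, which carries SEC11. SEC61, the pore of the channel, had 898 reads (132 RPKM) in 2-10515 and 1449 reads (233 RPKM) in Y518, a 1.76-fold difference (1.62 to 1.91). Its partners in the channel differed less. SSS1 had 151 and 192 RPKM, and SBH1 207 and 255 RPKM, so the level of SEC61 relative to both was greater in Y518. The accessory Sec63 complex feeds proteins to the channel after their synthesis, and its genes differed in ratio. SEC66 was 2.32-fold higher in Y518 (1.67 to 3.24) on 56 and 119 reads, or 19.2 and 44.4 RPKM. SEC63, the J-domain subunit that recruits the Hsp70 Kar2, was 1.22-fold higher (1.07 to 1.40), near the median of all genes. SEC62 had 135 and 141 RPKM and SEC72 94.5 and 80.4 RPKM, both with intervals that included 1. SEC66 was the lowest of the 7 channel and accessory genes in RPKM in either library, though in Y518 its interval overlapped that of SEC63.

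SEC65, a subunit of the signal recognition particle that brings nascent chains to the ER, had 143 and 215 reads (36.9 and 60.6 RPKM), a 1.64-fold difference (1.32 to 2.04). SEC11, the catalytic subunit of the signal peptidase that cleaves signal sequences, had 113 reads (47.6 RPKM) in 2-10515 and 286 reads (131 RPKM) in Y518. It was 2.76-fold higher in Y518 (2.21 to 3.46) and was called higher also after centring, at a log2 ratio of 1.17. The other peptidase subunits, which were not members, went both ways. SPC3 was 2.99-fold higher (2.21 to 4.07), SPC2 had 39.2 and 69.9 RPKM, and SPC1 had 46.9 and 23.6 RPKM. In 2-10515 the interval of SEC11 overlapped that of SPC1, the next gene in order, while in Y518 SEC11 stood clear above all 3 partners.

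Among 17 partner genes of translocation, 7 were called higher in Y518 and 0 lower, while centring gave 4 and 2. The shares over all genes, against which the counts of this and the other partner lists are to be read, were 19.9% higher and 8.88% lower, and 13.2% and 13.6% when centred. The list had a median log2 ratio of 0.70. Of these KAR2, the abundant Hsp70 of the ER lumen, had 2575 and 7945 reads (267 and 898 RPKM), a 3.37-fold difference (3.22 to 3.52). SIL1, a nucleotide exchange factor of Kar2, was 2.88-fold higher (2.36 to 3.54). The ratios of KAR2 and SIL1 were thus above that of SEC61.

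Of the 6 COPII members 1 was called higher in Y518, and the median log2 ratio of the group was -0.06, or -0.33 after centring. In COPII, SEC23 and SEC24 form the inner layer that binds cargo and SEC13 and SEC31 the outer cage. SEC24, the main cargo-binding subunit, had 1103 reads (84.2 RPKM) in 2-10515 and 2042 reads (170 RPKM) in Y518 and was 2.02-fold higher (1.88 to 2.17). Its partner SEC23, the GTPase-activating subunit, had 1439 reads (132 RPKM) and 931 reads (93.5 RPKM) and was 1.42-fold lower in Y518 (1.30 to 1.54). The order of the pair was therefore opposite in the libraries, with 0.64 RPKM of SEC24 per RPKM of SEC23 in 2-10515 and 1.82 in Y518. For the cage, SEC31 had 152 and 140 RPKM and was 1.09-fold lower (1.03 to 1.15), and SEC13, which is also a subunit of the nuclear pore, had 174 and 168 RPKM with an interval that included 1.

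SEC16, the scaffold of ER exit sites, had 55.5 and 53.0 RPKM, a ratio of 0.955 with an interval of 0.890 to 1.02. SEC12, the ER membrane protein that loads the GTPase Sar1 and so starts the coat, had 69 and 126 reads (10.3 and 20.6 RPKM) and was 1.99-fold higher in Y518 (1.47 to 2.71), within the 2-fold limit. It was the lowest member of the group in both libraries. Among the 4 COPII partners none was called by the 2-fold rule. SED4, a relative of SEC12, was 1.90-fold higher (1.63 to 2.22), and SFB2, a homologue of SEC24, was 1.67-fold lower (1.39 to 2.02) on 324 and 178 reads. SAR1 had 247 and 288 RPKM.

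In COPI also 1 of 4 members was called, while the other 3 stood at nearly the same level in both libraries as scaled by the authors. SEC28, the epsilon subunit, had 283 reads (67.5 RPKM) in 2-10515 and 622 reads (162 RPKM) in Y518, a 2.40-fold difference (2.08 to 2.77). SEC21, the gamma subunit, SEC26, the beta subunit, and SEC27, the beta-prime subunit, had ratios of 1.03, 1.02 and 0.931, each with an interval that included 1. After centring the log2 ratios of SEC21, SEC26 and SEC27 were -0.23, -0.25 and -0.37. Over all 7 coatomer genes, the 4 members and the partners COP1, RET2 and RET3, SEC28 was the lowest in 2-10515, where its interval overlapped that of COP1, and the highest in Y518, where it overlapped that of RET3. The highest gene stood 1.90-fold above the lowest in 2-10515 and 2.38-fold in Y518. Of the 9 COPI partners, which also include the Arf GTPases and their regulators, 0 were called in either direction, and their median log2 ratio was 0.16.

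**Figure D2:**
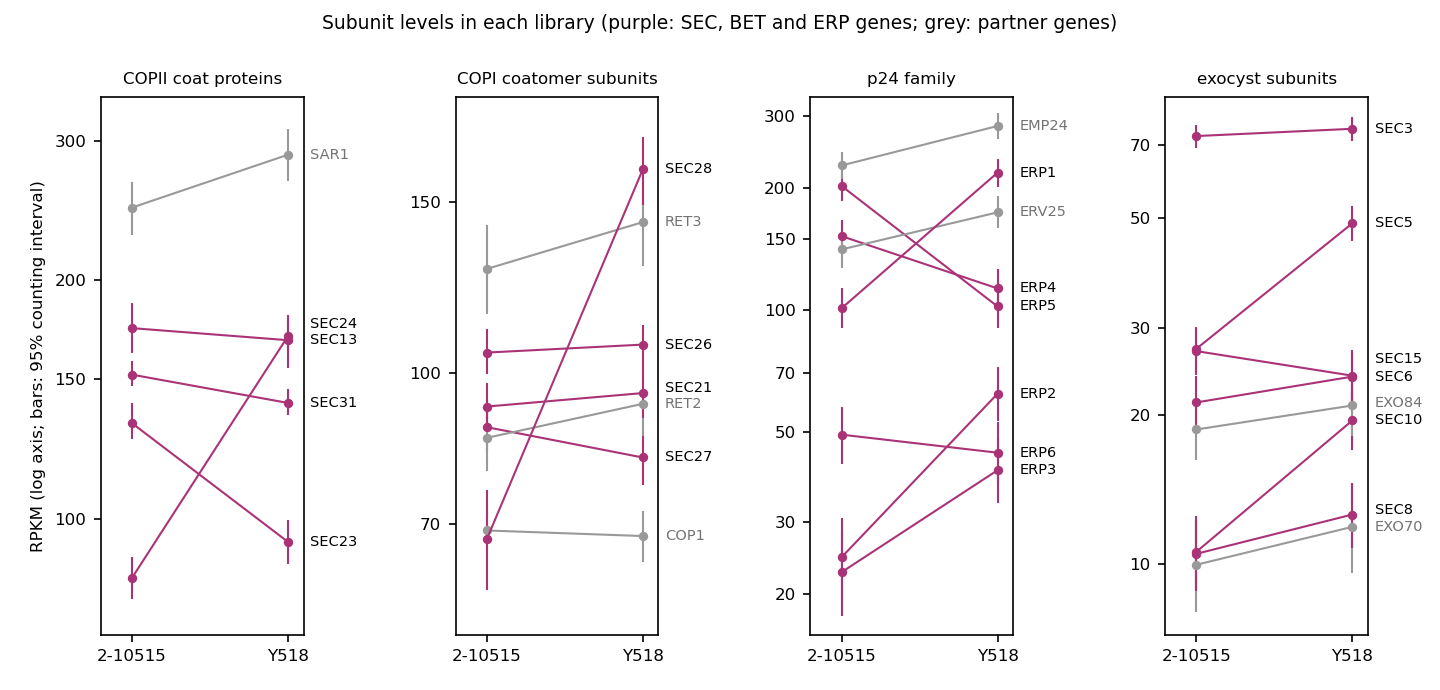
Levels in RPKM (log axis) of the subunits of both vesicle coats, the p24 family and the exocyst in the libraries of 2-10515 and Y518. Lines join the same gene, bars are 95% counting intervals, purple marks the members and grey the partner genes. SEC24 goes from the lowest of 5 COPII genes to second after SAR1, level with SEC13, SEC28 goes from the lowest to the highest COPI gene with intervals that overlap those of COP1 and RET3, ERP1 and ERP5 exchange places, and SEC3 stays above the other exocyst genes.

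Of the 6 p24 members 2 were called higher, ERP1 and ERP2, and 2, ERP4 and ERP5, had intervals below 1. These proteins cycle between the ER and the Golgi and help sort cargo such as glycolipid-anchored proteins into COPII vesicles. ERP1 had 314 reads (101 RPKM) in 2-10515 and 622 reads (218 RPKM) in Y518 and was 2.16-fold higher (1.88 to 2.48). ERP2 had 75 and 174 reads (24.6 and 62.2 RPKM) and was 2.53-fold higher (1.92 to 3.36). ERP5 went the other way, with 607 reads (202 RPKM) and 281 reads (102 RPKM), 1.98-fold lower in Y518 (1.72 to 2.29). ERP4 was also lower, by 1.35-fold (1.16 to 1.56) at 152 and 113 RPKM. ERP3 was 1.79-fold higher (1.32 to 2.43) at 22.6 and 40.3 RPKM, and ERP6 had 49.3 and 44.5 RPKM with an interval that included 1. In log2 ratio the group ran from -0.98 to 1.30, and after centring ERP2 was called higher and ERP5 lower.

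The summed level of the 6 ERP genes was 551 RPKM in 2-10515 and 580 RPKM in Y518, so the total was similar while its makeup was not. ERP5 and ERP4 led in 2-10515 and ERP1 in Y518, and the ratio of ERP1 to ERP5 was 0.50 in the former and 2.14 in the latter. In Y518 the intervals of ERP4 and ERP5 overlapped, as did those of ERP6 and ERP3, so neither pair can be ordered there. Erp1 and Erp2 are known as partners of Emp24 and Erv25 in 1 complex, and EMP24 had 227 and 284 RPKM and ERV25 141 and 174 RPKM. Of 10 partner genes of the p24 proteins and other cargo receptors 3 were called higher and 0 lower, and 1 and 0 when centred. Their median was 0.46. The largest difference was that of EMP46, a lectin-like receptor for glycoproteins, at 3.63-fold (2.83 to 4.71) on 82 and 273 reads. ERV29, a receptor for soluble cargo, and ERV41 were 2.20-fold and 2.23-fold higher.

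**Figure D3:**
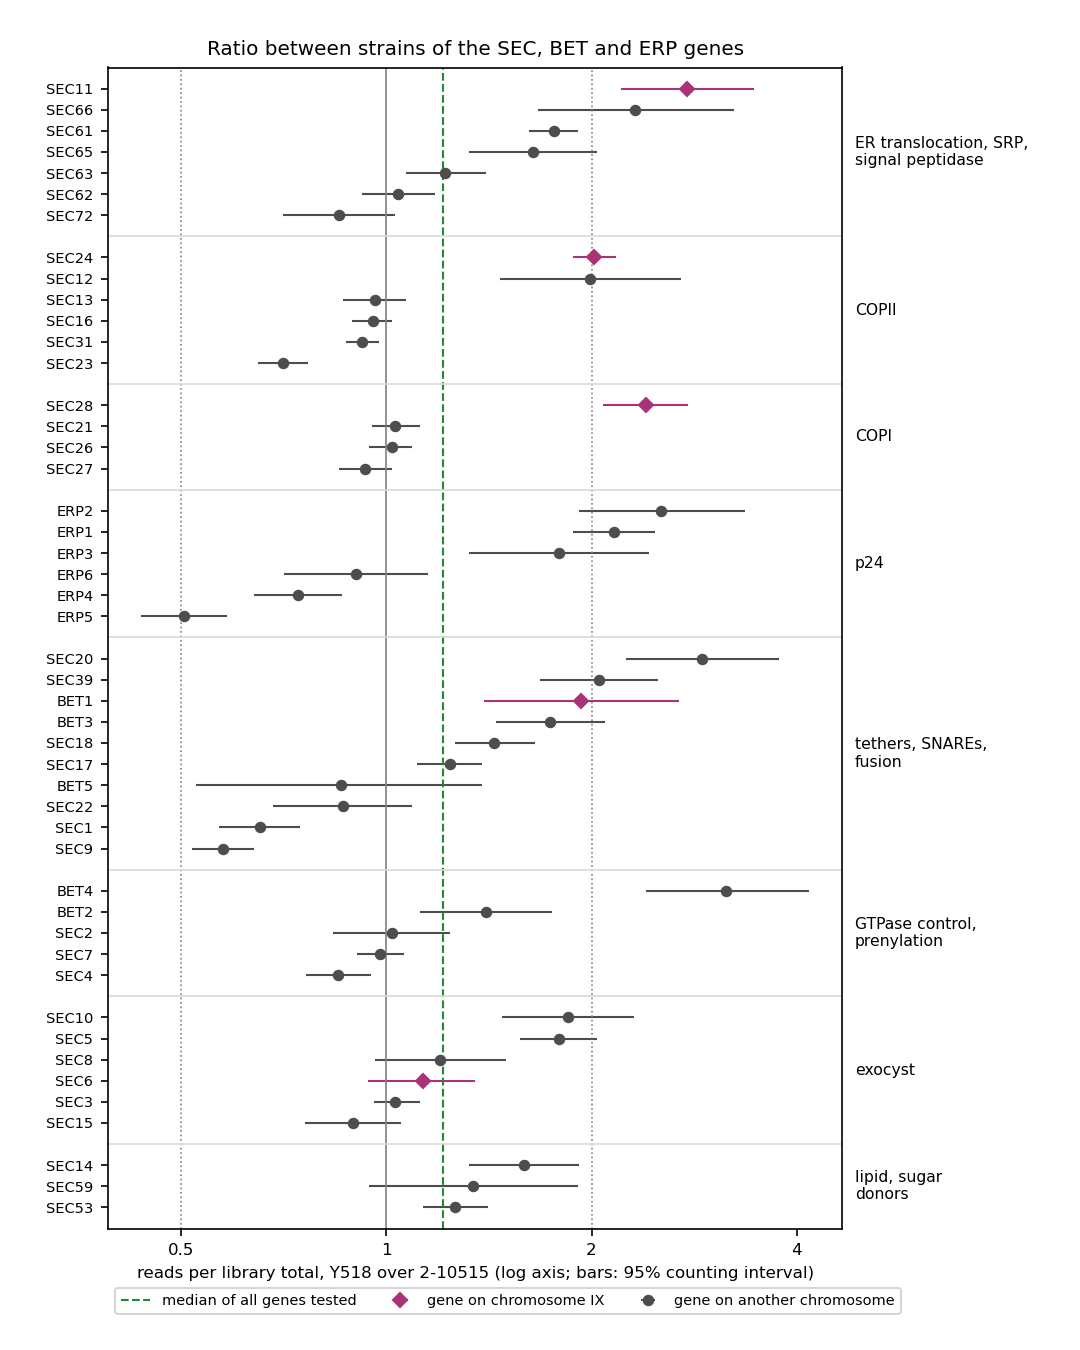
Ratio of reads per library total, Y518 over 2-10515, for each of the 47 genes on a log axis, with 95% counting intervals. The dashed line is the median of all genes tested, 1.21-fold, dotted lines mark 2-fold in either direction, and diamonds mark genes on chromosome IX. BET4 has the highest ratio at 3.15 and ERP5 the lowest at 0.505.

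Of 10 tethers and fusion factors 1 was called higher, SEC20, and the median log2 ratio was 0.41. At the ER, SEC20, a SNARE that receives vesicles returning from the Golgi, had 85 reads (15.7 RPKM) in 2-10515 and 226 reads (45.4 RPKM) in Y518 and was 2.90-fold higher (2.25 to 3.77). SEC39, a subunit of the Dsl1 tether at the same site, was 2.05-fold higher (1.68 to 2.50) at 15.7 and 32.1 RPKM, but its log2 ratio of 0.99 with the pseudocount lay just under the limit. Its partners in the tether, DSL1 and TIP20, had log2 ratios of 0.42 and 0.39. BET1, a SNARE of traffic from the ER to the Golgi, was 1.93-fold higher (1.39 to 2.69) on 60 and 106 reads. SEC22, a SNARE of the same step, had 55.3 and 47.8 RPKM, and its interval included 1.

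BET3, the core subunit of the TRAPP complexes that tether vesicles and activate Ypt1, had 192 and 306 reads (70.1 and 122 RPKM), a 1.74-fold difference (1.45 to 2.09). BET5, a smaller TRAPP subunit, had 42 and 33 reads, the fewest of all members, and its ratio of 0.857 had an interval of 0.526 to 1.38. At this depth the direction of a difference in BET5 could not be told. Among 12 partners of TRAPP and Dsl1, 11 passed the minimum, 2 were called higher and 0 lower, with a median of 0.57. TRS33 and TRS31 were 4.0-fold (2.52 to 6.57, on 24 and 88 reads) and 2.95-fold (2.27 to 3.88) higher. TCA17 was the partner below the minimum, at 5 reads in each library.

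SEC17 and SEC18 act at many fusion steps, and both had intervals above 1. SEC17, which links SNARE complexes to the ATPase that takes them apart, had 157 and 195 RPKM and was 1.24-fold higher (1.11 to 1.38), near the median of all genes. SEC18, that ATPase, was 1.44-fold higher (1.26 to 1.65) at 35.7 and 51.4 RPKM.

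SEC9 and SEC1, which act in fusion at the plasma membrane, had intervals below 1. SEC9, the SNARE that pairs there with the Sso proteins, had 1019 reads (111 RPKM) in 2-10515 and 538 reads (63.7 RPKM) in Y518 and was 1.74-fold lower (1.56 to 1.93). After centring its log2 ratio was -1.06, past the 2-fold limit. SEC1, which binds the assembled SNARE complex, had 557 and 333 reads (54.4 and 35.5 RPKM) and was 1.53-fold lower (1.34 to 1.76). SSO1 and SSO2 had ratios of 1.20 (1.08 to 1.32) and 1.17, the latter with an interval that included 1. The vesicle SNAREs that complete this complex were not alike, since SNC1 was 2.51-fold higher (2.11 to 3.01) while its paralogue SNC2 had 299 and 249 RPKM. Of the 15 SNARE partners 4 were called higher and 0 lower, and 2 and 0 when centred. Their median was 0.26. SFT1, a Golgi SNARE, had the largest difference at 3.82-fold (2.77 to 5.34) on 50 and 175 reads, and YKT6 was 2.19-fold higher.

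The letters CAGCGTG, the core of the element bound by the Hac1 activator of the unfolded protein response, were searched on both strands in the 250 bases before the start codon of each gene. They were present for 2 of 47 members (4.26%), SEC20 and SEC31, for 2 of 75 partners, KAR2 and LHS1, and for 59 of 5713 genes with such a window (1.03%). The windows of these genes are shown because SEC20, a member with one of the highest ratios, held the motif at 2 places, and KAR2 is a classical target of Hac1. They are from the RefSeq assembly R64 of strain S288C, on the coding strand of each gene from 5′ to 3′, with the motif or its reverse complement in capitals. The sequence of the strains studied may differ.
SEC20, chrIV:1447130-1447156, minus strand: atcacctgcaCACGCTGtccgggtaaa
SEC20, chrIV:1447022-1447048, minus strand: aagatcggatCACGCTGccaaggcgca
SEC31, chrIV:106949-106975, plus strand: tctaccccttCAGCGTGaaaaatcacc
KAR2, chrX:381157-381183, plus strand: aggaactggaCAGCGTGtcgaaaaagt
LHS1, chrXI:296321-296347, plus strand: taatatcgaaCACGCTGttataaaagt

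SEC20 held the motif at 145 and 37 bases before the start codon, SEC31 at 242, KAR2 at 153 and LHS1, an ER-lumen relative of Hsp70, at 92. The genes with a match were not alike in their values. SEC20, KAR2 and LHS1 had log2 ratios of 1.48, 1.75 and 1.44, and SEC31 had -0.12. No match in this window was found for SEC61, SEC66, the ERP genes, BET4 (log2 ratio 1.60) or SEC11 (1.45). Partners without a match included SFT1, TRS33 and EMP46, with log2 ratios of 1.90, 1.84 and 1.78. None of the 5 windows overlapped another annotated gene. A match is a description of letters and not of a site in use.

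Of the 5 members that control GTPases or attach their lipid anchors, 1 was called higher, BET4. SEC4, the Rab GTPase of secretory vesicles, was the highest member in 2-10515 with 763 reads (250 RPKM), had 595 reads (213 RPKM) in Y518 and was 1.18-fold lower (1.05 to 1.31). SEC2, its exchange factor, had 19.8 and 20.2 RPKM, and SEC7, the Golgi exchange factor for Arf, 48.6 and 47.6 RPKM. BET4 and BET2 encode the alpha and beta subunits of the enzyme that puts geranylgeranyl groups on Rab proteins. BET4 had 73 reads (15.8 RPKM) in 2-10515 and 211 reads (49.7 RPKM) in Y518, and its 3.15-fold difference (2.40 to 4.17) was the highest of all members. BET2 was 1.40-fold higher (1.12 to 1.75) at 31.3 and 43.8 RPKM. BET4 stood at 0.50 of the level of BET2 in 2-10515 and at 1.13 in Y518. Of 6 Rab partners 0 were called and the median was -0.15. MRS6, the escort protein that presents Rab proteins to Bet2 and Bet4, was 1.30-fold lower in Y518 (1.20 to 1.42).

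None of the 6 exocyst members was called by the 2-fold rule (19.9% of all genes tested were higher and 8.88% lower). Their median log2 ratio was 0.20, beside 0.27 for all genes. The exocyst tethers secretory vesicles at sites of growth. SEC3, a subunit that marks those sites, had 1379 and 1308 reads (73.0 and 75.5 RPKM) and stood clear above every other subunit in both libraries. SEC5 was 1.79-fold higher in Y518 (1.57 to 2.04) with 374 and 613 reads (27.2 and 48.7 RPKM), and SEC10 1.85-fold higher (1.48 to 2.31) with 130 and 220 reads (10.6 and 19.5 RPKM). SEC6 had 21.2 and 23.9 RPKM, SEC8 10.5 and 12.6 RPKM and SEC15, the subunit bound by Sec4, 26.9 and 24.0 RPKM, each with an interval that included 1. SEC5 and SEC15 could not be ordered in 2-10515, where their intervals overlapped, and were 48.7 and 24.0 RPKM in Y518. The partners EXO70 and EXO84 had ratios of 1.19 and 1.12 with intervals that included 1.

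The 3 members with other roles were above 1. SEC14, which transfers phosphatidylinositol and phosphatidylcholine and sustains Golgi secretion, was 1.59-fold higher (1.32 to 1.92) at 45.3 and 71.9 RPKM. SEC53, phosphomannomutase, had 584 and 676 reads (162 and 205 RPKM), a ratio of 1.26 (1.13 to 1.41) near the median of all genes. SEC59, dolichol kinase, had 61 and 75 reads over 74.5% and 73.1% of its length, the lowest coverage of the members, and its interval of 0.944 to 1.91 included 1.

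Of the 8 members called higher 3 lie on chromosome IX. That chromosome stood apart from all others in the table, with a median log2 ratio of 1.01 over 196 genes, against 0.25 for the 5219 genes outside it, and 51.0% of its genes were called higher. It carries 5 members, SEC11, SEC28, SEC24, BET1 and SEC6, with log2 ratios of 1.45, 1.25, 1.01, 0.92 and 0.16 and a median of 1.01. Relative to the median of the chromosome SEC11 was at 0.44, SEC28 at 0.24, BET1 at -0.08 and SEC6 at -0.84, and SEC24 was at the median. SEC24, SEC28 and SEC11, the called members of COPII, COPI and the signal peptidase, are thus all genes of chromosome IX, and the part of the chromosome in their values was not tested. Without chromosome IX 5 of 42 members were called higher, where 18.7% of all genes were, 0 were lower (9.02% of all genes), and their median was 0.15 against 0.25.

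The other 5 called members lie on chromosomes whose medians were near that of all genes. ERP1 and ERP2 are both on chromosome I, where the median of 78 genes was 0.41, and stood 0.69 and 0.89 above it. SEC66, SEC20 and BET4, on chromosomes II, IV and X, stood 0.84, 1.20 and 1.32 above the median of their chromosome. ERP5 on chromosome VIII and SEC9 on chromosome VII stood lower than theirs, at -1.33 and -0.84.

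**Figure D4:**
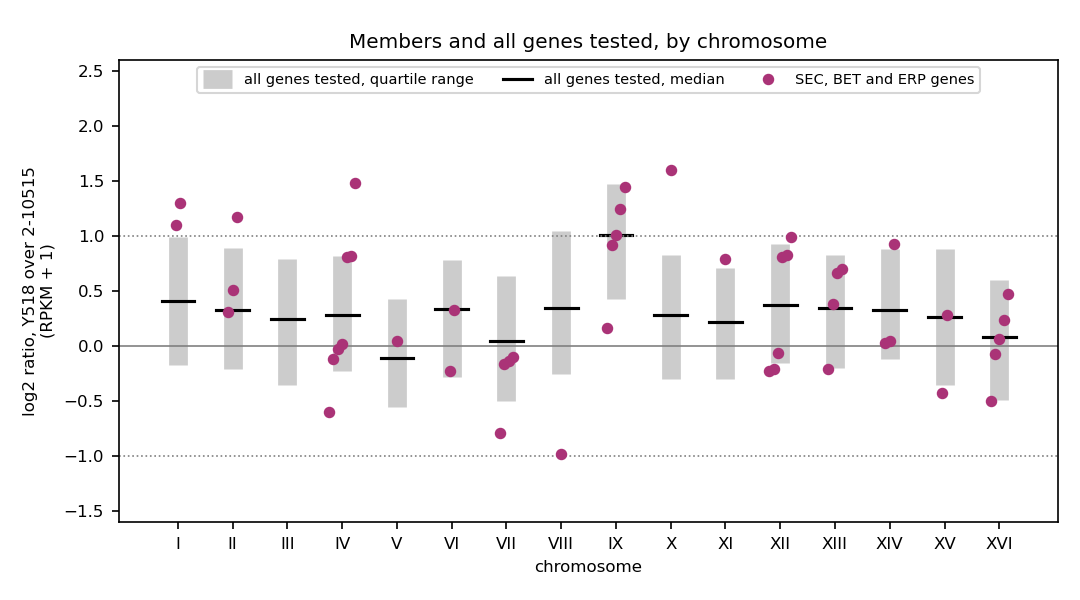
Log2 ratio of RPKM plus 1, Y518 over 2-10515, by chromosome. Purple points are the 47 genes, black lines the median and grey bars the quartile range of all genes tested on each chromosome, and dotted lines mark 2-fold. The median of chromosome IX lies at 1.01, and 3 of its 5 members lie at or above 1.

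Levels of the members kept a similar order in both strains, with a Spearman rho of 0.86 across the 47 genes (0.83 across all genes tested). Members that were low in 2-10515 tended to have the higher ratios, with a rho of -0.49 between RPKM in 2-10515 and log2 ratio (-0.33 across all genes). This measure shares the 2-10515 library between both axes, and with the mean RPKM of both libraries rho was -0.25. Coding length was only weakly related to the ratio (rho -0.12). These correlations run across genes, which are not independent replicates, and are given as descriptions.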

How the data were processed

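Per the file headers, the authors deposited for each of 5734 coding sequences the count of unique reads, the percent of the listed length covered by reads (coverage) and the RPKM, for 2 libraries. The deposited RPKM equalled count over length and library total (0 mismatches per library at a relative tolerance of 1e-06), and the single-library tables held the same counts. The aligner, the counter, the strand setting and the build: not given in the sources used here. All 47 members matched a RefSeq record of assembly R64 in version and coding length, which gave chromosomes, the search windows and overlaps (21 listed genes had no match). Listed lengths are coding lengths.

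Ratios were log2 of (RPKM + 1) in Y518 over 2-10515 for genes whose RPKM averaged 5 or more over both libraries, called at 2-fold. With 1 library per strain no p-value was computed. Binomial and Poisson 95% intervals cover counting error only, and reads without molecular identifiers are not independent molecules. Near-identical copies (95% identity over 100 nt, 189 genes) were sought with BLAST+ 2.17.0. TMM factors came from edgeR 4.0.16 and size factors from DESeq2 1.42.0, and SciPy 1.17.1 gave the intervals. Roles were assigned by textbook knowledge, as were the 8 partner lists (75 genes, ERV26 listed as SVP26). Every member is named. Partners named for their size are among the up to 3 genes of each list with the largest absolute log2 ratio. Not all of those 3 are named, and none of them for COPI. Partners that are not named enter only the counts and medians of their lists. The values of 1 partner gene are not reported here. Other partners named beside a complex (SSS1, SBH1, SPC1, SPC2, SAR1, EMP24, ERV25, DSL1, TIP20, SSO1, SSO2, SNC2, LHS1, TCA17 and the COPI subunits) were chosen after their values were seen. The members and lists were chosen with earlier results of these data known. Columns of other samples numbered 0. Alternatives were the scaling, the pseudocount, the minimum, the call limit, and leaving out chromosome IX or near-identical copies.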

Additional observations from a re-analysis of the deposited data

How the results depend on the processing

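The scaling decided the counts of calls. Centred on the median of all genes, with TMM and with DESeq2 size factors, 4 members were higher in Y518 and 2 lower in each case, against 8 and 0 as scaled by the authors, and partner genes went from 16 higher and 0 lower to 9 and 2 of 74. Of all genes 19.9% were higher and 8.88% lower as scaled by the authors, 13.2% and 13.6% centred, 13.5% and 13.2% with TMM, and 13.2% and 13.5% with DESeq2 size factors. The median log2 ratio of the members was 0.01 after centring, 0.03 with TMM and 0.01 with DESeq2 size factors, beside medians of all genes of 0.00, 0.01 and 0.00. BET4, SEC20, SEC11 and ERP2 were called higher under every scaling and pseudocount tried, and ERP5 and SEC9 were called lower under each of the 3 other scalings. Without chromosome IX 5 members were higher (18.7% of all genes). Called at 1.5-fold, 18 members were higher and 3 lower (35.3% and 16.4% of all genes), and 26 partner genes were higher and 4 lower. With a pseudocount of 0.1 or 5 RPKM, 9 and 7 members were higher and 0 lower. Of all genes 20.9% were higher and 9.29% lower at 0.1 RPKM, and 16.2% and 7.76% at 5 RPKM. The counts did not change with no minimum, with a minimum of 20 RPKM (42 members) or without near-identical copies, except that 14 partner genes were higher at 20 RPKM. Of 235 values of single members under other scalings and pseudocounts, 0 of the called ones changed sign. By more than the distance from the middle to an end of their log2 counting interval 83 moved. Of 72 medians of role groups under the alternatives 24 moved by more than 0.21, the median of that distance over the members. All of these were under the 3 other scalings. The partner counts were recomputed by a choice made after seeing the data. No paired analysis was possible because each strain has 1 library. Depth limits the members with the fewest reads, such as BET5 and SEC59, and 1 library per strain limits all of them.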
